A study of Bombyx mori with 2 samples.

Results

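The genes of chitin metabolism described here are 8 silkworm genes that the study grouped together as key genes for chitin: trehalase (BGIBMGA005665), G6PI (BGIBMGA004221), GFPA (BGIBMGA007517), G6PNA (BGIBMGA005161), UNAP (BGIBMGA001609), the chitinases BGIBMGA008709 and BGIBMGA010240, and NAG (BGIBMGA011646). They were taken by gene identifier from the deposited lists of single-base variants and short insertions or deletions (indels), where 6 of the 8 genes have at least 1 listed site and together hold 62 of 47001 sites. The lists name 6641 genes in all. RNA came from the epidermis of 4th-instar larvae 6 hours after molting. The mutant q-lp (purple quail-like), which arose from the plain strain 932VR and was inbred for more than 10 generations, and its wild type 932VR gave 1 library each. Each epidermis sample was taken from 3 silkworms.

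Each listed site is a position where reads differed from the SilkDB genome sequence. For it the lists give the reads with the reference base, the reads with the alternative base, their sum (the coverage) and the alternative share, which is the alternative reads as a percent of the coverage. No column separates q-lp from 932VR, so the strains cannot be compared from these lists. The lists carry the names of both strains. Every value below is therefore taken to count the reads of both libraries together, which the lists do not state. A site has at least 2 alternative reads, and a position where every read matched the genome is not listed. Coverage of the 47001 sites was 2 to 100 reads with a median of 7, and 61.3% of the sites had fewer than 10 reads. The larval and other cuticular protein genes fixed as markers of epidermis held 18 sites in 3 of 5 genes, covered by 2 to 81 reads. Of the 2 genes listed for muscle, BmActin3 had no site, and the myosin heavy chain gene BGIBMGA005536 had 2 sites, covered by 29 and 94 reads. The study names this myosin a non-muscle one, so it does not mark muscle, and no marker of muscle could be read. Coverage at a variant site is not a measure of expression, and the share of the tissues in the samples was not tested.

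Chitin is the polymer of N-acetylglucosamine that stiffens the insect cuticle. Its synthesis starts from trehalose, the blood sugar of insects, and runs through sugar phosphates to UDP-N-acetylglucosamine, which chitin synthase joins into chains. At each molt, chitinases cut the chitin of the old cuticle into oligomers and β-N-acetylglucosaminidase releases the single sugars. The genes are described below in that order.

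No deposited list holds a stretch of sequence around a site. The PCR primers that the study designed are given for 4 genes: for GFPA and chitinase BGIBMGA008709 because no site of theirs is listed, and for chitinase BGIBMGA010240 and NAG because the results turn on them. Each is written 5′ to 3′, with its last 5 bases, from which the polymerase extends, in capitals. Where the primers lie relative to the sites was not determined, because no genome of the files' build was used here.
GFPA forward: atgctggtcctgagATTGG
GFPA reverse: ggcaagaacctggCGAAT
Chitinase BGIBMGA008709 forward: caggaacatggcagtacttttACGAT
Chitinase BGIBMGA008709 reverse: cgtctatttcccaagcgaacaGTCCA
Chitinase BGIBMGA010240 forward: ctactaccacaacgaaagtacCCCAT
Chitinase BGIBMGA010240 reverse: cgttcacacatcgccaatacTTGCT
NAG forward: gctcacactctaccacGGGAC
NAG reverse: tgaccacagcctcTCCGC

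At 55 of the 62 sites no read had the genome's base, and all 7 sites that had such reads lie in chitinase BGIBMGA010240. The 5 other genes with sites had 0 reference reads among the 481 reads summed over their 50 sites, where a read that spans several sites is counted at each. Reads with the reference base were therefore present at 11.3% of the sites of the 8 genes (95% exact interval 4.66 to 21.9%), beside 15.1% of all 47001 sites. The interval holds the value of all sites, so the 8 genes as a group were not distinguishable from the whole lists in this measure. This interval, like those below, treats the sites as separate, although sites of a gene share reads, and it covers counting error only. All 62 sites were single-base substitutions. Indels made up 3.15% of the sites of the whole lists.

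**Figure D1:**
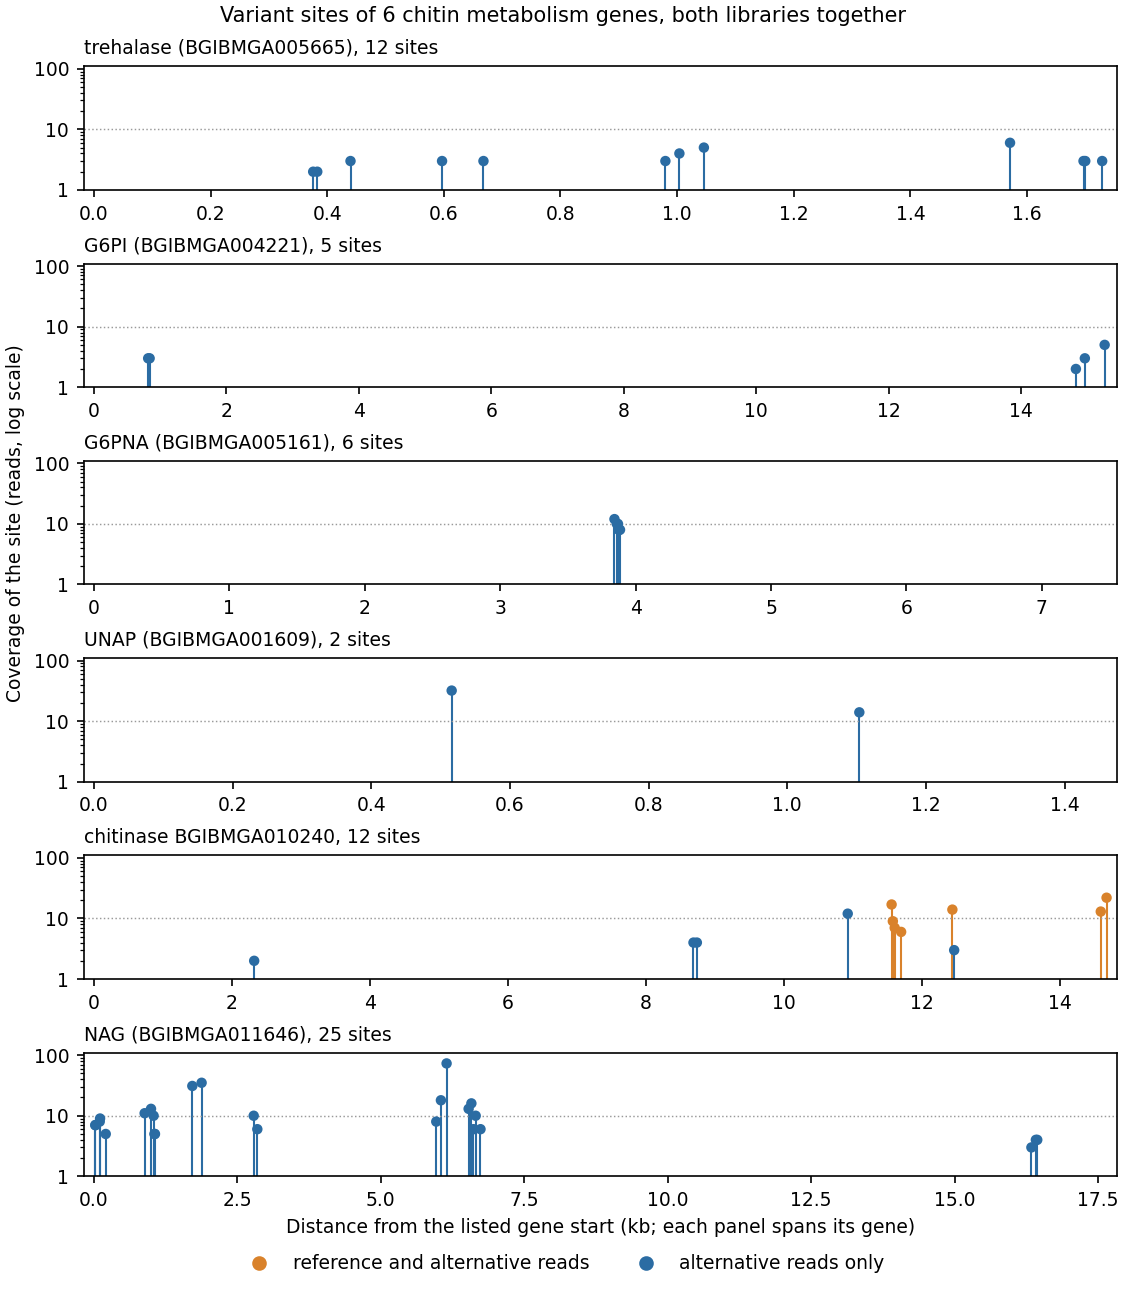
Coverage (vertical axis, reads, log scale) at each of the 62 listed sites against the distance from the listed start of its gene (horizontal axis, kb), 1 panel per gene, with the dotted line at 10 reads. Orange points have reference and alternative reads and blue points have alternative reads only; the 7 orange points are all in chitinase BGIBMGA010240, and the site with the highest coverage, 73 reads, is in NAG.

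Trehalase hydrolyses trehalose to glucose at the head of the pathway. Its gene is listed on Bm_scaf33 from 2873946 to 2875682, a span of 1737 bp, with 12 sites. This is 6.91 sites per kb of span, the highest density of the 6 genes, and 401 of the 6641 genes had a higher one. Coverage was low throughout, from 2 to 6 reads with a median of 3. The site with the highest coverage was C2875517T with 6 reads, followed by C2874992T with 5 and T2874950C with 4, where each token gives the reference base, the listed position on the scaffold and the alternative base. All 40 reads counted over the 12 sites had the alternative base. With 6 reads at most, a rarer second allele could go unseen at any of the 12 sites. The sites lie between 376 and 1729 bp from the listed start, and the last of them is 7 bp inside the listed end.

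G6PI, which interconverts glucose 6-phosphate and fructose 6-phosphate, is listed on Bm_scaf152 from 109360 to 124650. It has 5 sites in 15291 bp, or 0.327 per kb, the lowest density of the 6 genes. T110179C, T110201C and G124319A were covered by 3 reads each, C124184A by 2 and A124618G by 5, all of them alternative. The sites form a pair near one end of the gene and a group of 3 near the other, with 13983 bp between 110201 and 124184 in which no site is listed. Whether this stretch is intron could not be seen, since the lists do not mark exons.

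GFPA moves an amino group from glutamine to fructose 6-phosphate and opens the branch to amino sugars. No site was listed in this gene, in either list. Its place on a scaffold is therefore not given either, because the lists state a gene's start and end only beside a site. A gene without a site may match the genome sequence, may lack covered variant positions, or may have had its sites removed by a filter. These cannot be told apart here. No listed site had more than 100 reads, and whether deeper positions were left out was not tested.

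G6PNA acetylates glucosamine 6-phosphate. Its gene is listed on Bm_scaf32 from 3009932 to 3017411, and its 6 sites all lie within 42 bp of the 7480 bp span. A3013776C was covered by 12 reads, T3013794C and T3013802C by 10 each, and A3013808G, A3013810G and G3013817A by 8 each. All 56 reads over the 6 sites were alternative. The sites follow each other at 18, 8, 6, 2 and 7 bp, and no site is listed in the 3844 bp before or the 3594 bp after the group. Such close sites can be covered by the same reads, so the 6 counts are not independent.

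UNAP joins N-acetylglucosamine 1-phosphate to UTP and so yields the sugar donor of chitin synthase. The gene is listed on Bm_scaf35 from 4110784 to 4112244 and has 2 sites. A4111300T was covered by 32 reads and A4111888T by 14, all with the alternative base. Both are transversions, that is, changes between a purine and a pyrimidine, and UNAP is the only gene of the 6 without a transition. At 32 reads, 0 reference reads allows a share of up to 9.38% (3 reads of the coverage), and at 14 reads up to 21.4%. The reads that each library gave are not listed, so these limits do not apply to either strain alone.

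Of the chitinases, which cut chitin chains internally, BGIBMGA008709 has no listed site and BGIBMGA010240 has 12. The gene BGIBMGA010240 is listed on Bm_scaf15 from 3001155 to 3015837, with 0.817 sites per kb. Its sites had 99 alternative and 14 reference reads in sum. All 12 sites are given here, more than the rule for named sites asks, because this gene was singled out after its values were seen. Along the scaffold, the sites T3003478C, A3009846G, G3009895A and C3012082G were covered by 2, 4, 4 and 12 reads, and none of these reads had the reference base. The next group, C3012718T, G3012736A, A3012763C and A3012856C, had 1 reference read each beside 16, 8, 6 and 5 alternative reads. T3013599C had 1 reference and 13 alternative reads, and T3013625C had 3 alternative reads only. G3015750A had 2 reference and 11 alternative reads, and G3015834A had 7 and 15. The reference base was thus the rarer at every site, and 9 of the 14 reference reads lay at the last 2 sites, 87 and 3 bp inside the listed end. A read that spans several sites is counted at each, so the 14 need not be separate reads.

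**Figure D2:**
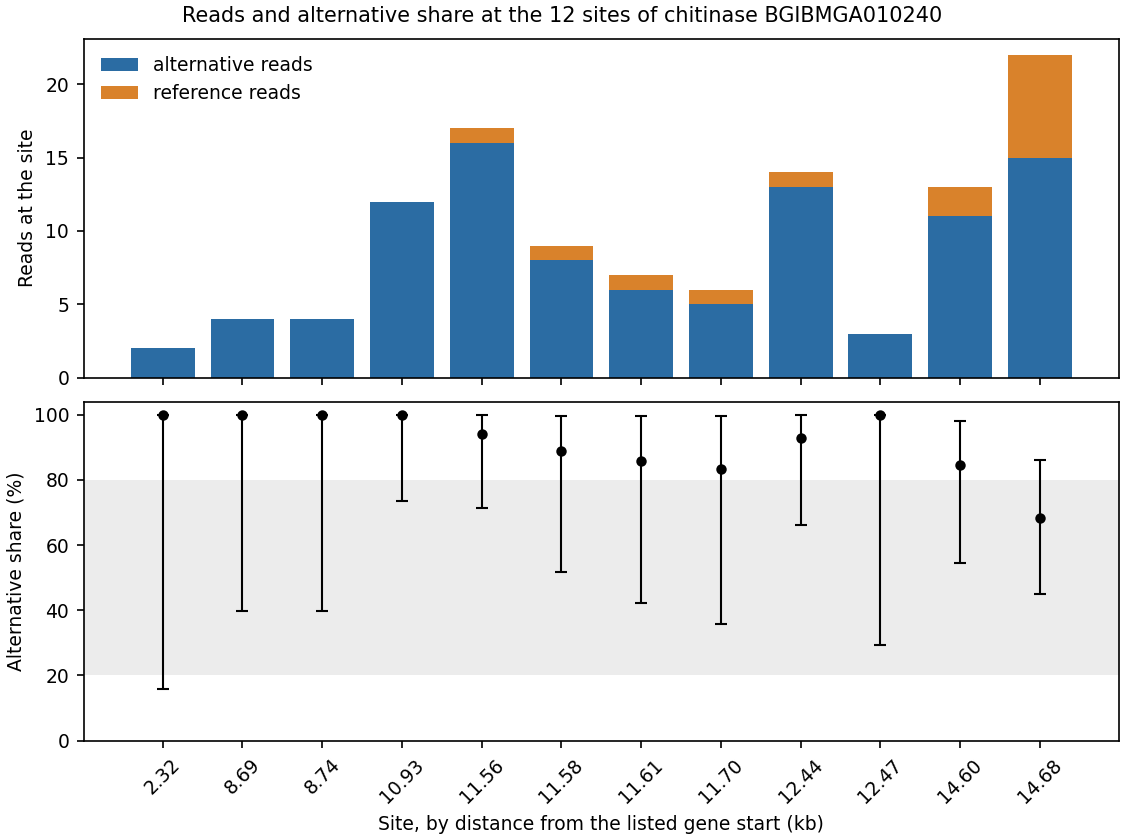
Upper panel: reads at each of the 12 sites of chitinase BGIBMGA010240, with alternative reads in blue and reference reads stacked in orange. Lower panel: alternative share in percent with its exact 95% interval, over the range from 20 to 80% in grey; the sites are ordered by distance from the listed gene start (kb, not to scale), and the last site, at 68.2%, is the only point inside the grey range.

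The alternative share at these sites was 68.2% at G3015834A (95% exact interval 45.1 to 86.1%, coverage 22), 84.6% at G3015750A (54.6 to 98.1%, coverage 13), 92.9% at T3013599C (66.1 to 99.8%, coverage 14) and 94.1% at C3012718T (71.3 to 99.9%, coverage 17). C3012082G stood at 100% (73.5 to 100%, coverage 12). The 5 intervals overlap, and a difference in share between the sites was not tested. The sites with 9 reads or fewer had wider intervals still, down to 15.8% at their lower bound.

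NAG, the β-N-acetylglucosaminidase that splits chitin oligomers into single sugars, held the most sites. It is listed on Bm_scaf16 from 3176500 to 3194154, with 25 sites in 17655 bp, or 1.42 per kb, and 280 of the 6641 genes had more sites. Coverage was 3 to 73 reads with a median of 8. The most covered sites were T3182647A with 73 reads, C3178377T with 35 and T3178215C with 31, and no read at any of the 25 sites had the reference base (0 of 323 reads in sum). At T3182647A this allows a share of reference reads of up to 4.11%, at C3178377T of up to 8.57% and at T3178215C of up to 9.68%. The site with the firmest reading of a single base among the 8 genes was T3182647A. For NAG as a gene this does not hold, since its median coverage of 8 reads was below that of UNAP (23) and G6PNA (9). Between 3183238 and 3192840 no site is listed over 9602 bp, and 3 sites follow this gap.

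**Figure D3:**
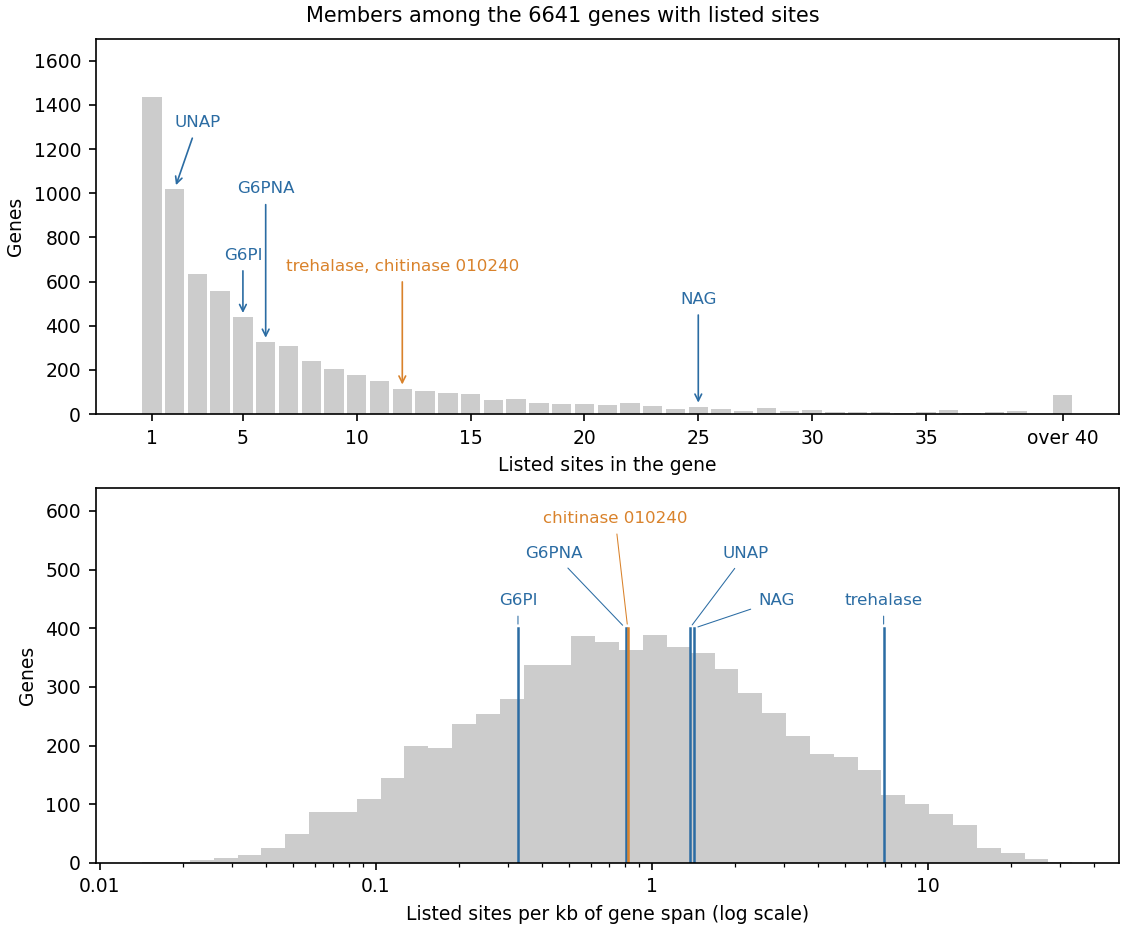
Number of genes (vertical axes) by listed sites per gene (upper panel) and by sites per kb of listed gene span on a log scale (lower panel) over the 6641 genes with sites, in grey, with the 6 chitin metabolism genes marked, BGIBMGA010240 in orange (in the upper panel together with trehalase). NAG stands at 25 sites and UNAP at 2, and in the lower panel trehalase stands at 6.91 sites per kb and G6PI at 0.327.

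Among the 6641 genes the number of listed sites had a median of 4 and quartiles of 2 and 9, so that UNAP, G6PI and G6PNA lay within the quartiles, and trehalase, BGIBMGA010240 and NAG above them. By density, the median over all genes was 0.842 sites per kb. G6PI (0.327), G6PNA (0.802) and BGIBMGA010240 (0.817) were below it, UNAP (1.37), NAG (1.42) and trehalase (6.91) above it. The span includes introns, so density compares genes of different structure only roughly. In steps of the pathway, the 5 genes of synthesis had 25 sites in 4 genes with a median coverage of 3 reads. The 3 genes of breakdown had 37 sites in 2 genes with a median coverage of 8 reads. The median of synthesis follows trehalase and G6PI, which hold most of its sites and had a median of 3 reads each. G6PNA (9) and UNAP (23) had higher medians than the 8 reads of each breakdown gene with sites.

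Sites covered by at least 10 reads allow the share to be read more closely, and 21 of the 62 sites reached this coverage: 3 in G6PNA, 2 in UNAP, 5 in BGIBMGA010240 and 11 in NAG. At 17 of the 21 sites (81.0%) only alternative reads were counted, beside 75.1% of the 18174 sites of this coverage in the whole lists. A share from 20 to 80%, taken as the presence of both bases, was found at 1 of the 21 sites, G3015834A (4.76%, 95% exact interval 0.120 to 23.8%), beside 21.0% of all such sites. The other 20 (95.2%) had a share above 80%, beside 77.2% of all. With 21 sites in 4 genes, the background of 21.0% lies inside the interval of the members, and the lower percent of sites with both bases was not distinguishable from it. The median share was 100% among the 21 sites and also among all 18174.

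Each site with at least 10 reads was tested against an even split of its reads (50%), with p-values adjusted over all 18174 sites. If the counts pool both libraries, a share depends on the reads that each library gave at the site. The even split is then a point of reference and not an allele state. The share lay away from 50% at 20 of the 21 sites, beside 83.0% of all sites (exact binomial test, two-sided, adjusted p under 0.05). All 16 tested sites in G6PNA, UNAP and NAG passed, from an adjusted p of 0.00248 at the sites with 10 reads to an adjusted p of 5.71e-21 at T3182647A by this exact test. In BGIBMGA010240, 4 of 5 sites passed, and G3015834A did not (adjusted p = 0.155, exact binomial test). With 10 reads, a site that has only alternative reads passes, so this call follows from the share of alternative-only sites and the depth.

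In the whole lists 4517 sites with at least 10 reads had reference reads, with a median alternative share of 44.0%, and 8.19% of them had a share above 80%. In BGIBMGA010240, 3 of the 4 such sites were above 80% (75%, 95% exact interval 19.4 to 99.4%), which is a count over 4 sites of 1 gene. At 5 of its 12 sites the reference base rested on a single read. At the sites from C3012718T to A3012856C this may be the same read. Sequencing errors in the reads with the reference base were not tested. Over genes with at least 5 sites, 64.5% of 2995 genes had no reference read at any site, and of the 5 chitin genes with as many sites, 4 had none.

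Genes on the same scaffolds were set beside the members, a comparison added after the values were seen. Of the sites with at least 10 reads in the 99 other genes of Bm_scaf15, which holds BGIBMGA010240, 50.4% of 264 had both bases. The corresponding values were 3.19% of 407 sites on Bm_scaf16 (NAG), 4.93% of 284 on Bm_scaf32 (G6PNA), 6.48% of 247 on Bm_scaf35 (UNAP), 0% of 254 on Bm_scaf33 (trehalase) and 0% of 10 on Bm_scaf152 (G6PI). Of these scaffolds only Bm_scaf15, which holds the gene with reference reads, had a percent above the 21.0% of the whole lists. By the same measure, BGIBMGA010240 itself had both bases at 1 of its 5 sites with at least 10 reads. No other gene with sites lies within 100 kb of BGIBMGA010240. The nearest before it, BGIBMGA010238 at 100738 bp, had reference reads at 4 of 7 sites, with a median coverage of 15 reads. The nearest after it, BGIBMGA010137 at 246675 bp, had them at 0 of 8 sites, with a median coverage of 3.5 reads. At that coverage a rarer second allele could go unseen. Within 100 kb of the other members, reference reads were found at 0 of 13 sites of other genes around NAG, 0 of 16 around trehalase, 0 of 27 around G6PI, 0 of 31 around UNAP and 2 of 37 around G6PNA. Those 2 sites lay in the nearest listed genes on either side of G6PNA, BGIBMGA005160 and BGIBMGA005037, while G6PNA itself had no reference read. Whether these neighbourhoods bear on the shares within the genes was not tested.

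**Figure D4:**
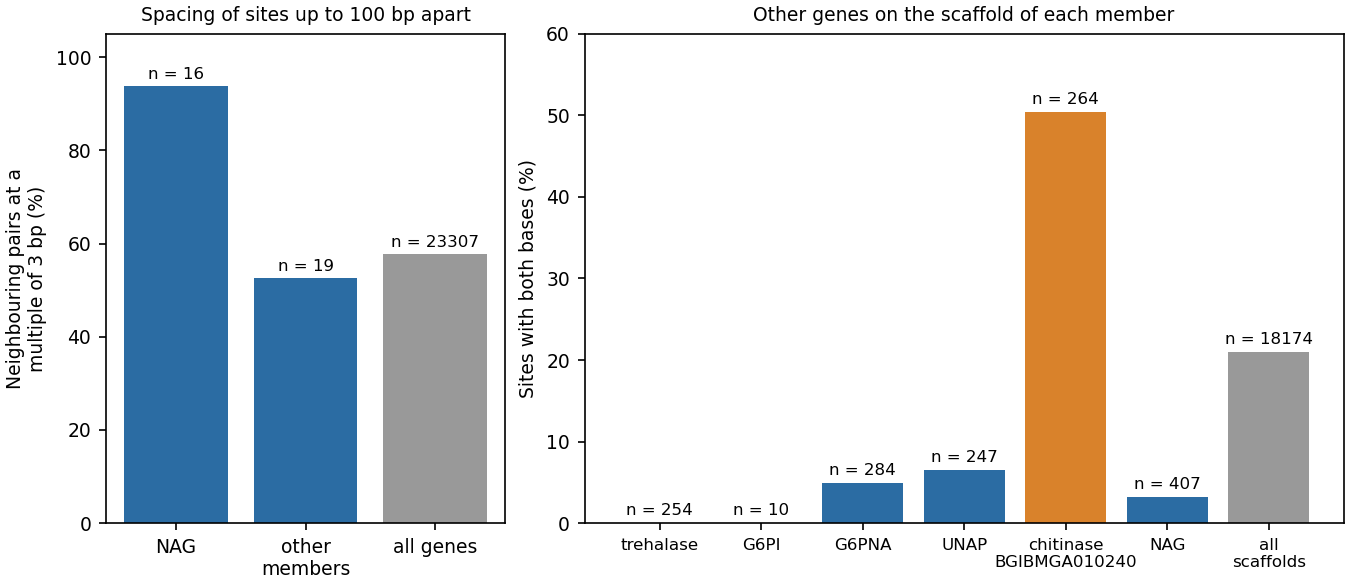
Left: percent of neighbouring sites up to 100 bp apart in the same gene whose distance is a multiple of 3 bp, in NAG, in the other chitin genes and in all genes, with n as the number of pairs. Right: percent of sites with both bases (share 20 to 80%, at least 10 reads) in the other genes on the scaffold of each member and on all scaffolds, with n as the number of sites; Bm_scaf15, with chitinase BGIBMGA010240, stands at 50.4% and all scaffolds at 21.0%.

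The positions themselves showed a regular spacing in NAG. Of 16 neighbouring pairs of sites up to 100 bp apart, 15 were separated by a multiple of 3 bp, the length of a codon, as in the run of 48, 36, 39 and 84 bp from A3183031G to T3183238C. The exception was the 74 bp between A3176527G and G3176601A. In the other chitin genes 10 of 19 pairs (52.6%) had such a distance, and in all 35 pairs together 25 did (71.4%, 95% exact interval 53.7 to 85.4%), beside 57.8% of 23307 pairs in the whole lists. Among the 298 genes with at least 16 pairs, a cutoff set to NAG's own number of pairs, 5 reached the percent of NAG, NAG included. The median over all 298 genes was 52.6%. The spacing measure and this cutoff were chosen after the positions were seen, so the place of NAG among these genes is a description only. The pairs of a gene share sites, and the reading frame was not known from the lists.

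Transitions, changes within purines or within pyrimidines, made up 49 of the 62 substitutions (79.0%, 95% exact interval 66.8 to 88.3%), beside 66.6% of 45398 substitutions in the whole lists. They were 22 of 25 in NAG, 9 of 12 in trehalase, 9 of 12 in BGIBMGA010240, 5 of 6 in G6PNA, 4 of 5 in G6PI and 0 of 2 in UNAP. A to G was the most common change, at 17 sites, of which 12 were in NAG, and T to C followed at 15 sites. The interval for the 8 genes starts just above the background, and sites of 1 gene are not independent.

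The pigment gene groups of the same study are given beside the 15.1% of all sites with a reference read. Of 13 melanin genes, 7 had sites, and 1 of 65 sites (1.54%) had a reference read. Of 6 ommochrome and pteridine genes all had sites, and 11 of 48 sites (22.9%) had reference reads, which lay in 1 gene. As in the chitin group, where they lay in BGIBMGA010240, each of these percents rests on 1 gene, and no test of a difference between the groups was made.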

How the data were processed

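From total RNA of epidermis the authors enriched mRNA with oligo(dT) beads and sequenced 1 library of q-lp and 1 of 932VR. The reads were aligned by the authors to the SilkDB genome, and which program called the variants, with which filters, is not given in the sources used here. The deposited tables give raw counts of reference and alternative reads at each site, the coverage, and the percent of reads with the alternative base. They have no column per library and were taken to pool both libraries. In all rows the coverage was the sum of both counts. Of 47044 rows, 43 repeated a site for an overlapping gene and were counted once, except in values per gene. RPKM and qRT-PCR values of the study were not used.

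Members and gene lists were chosen with earlier results of these data known. All 8 genes are named, with every site for genes of at most 5 sites and otherwise the 3 of highest coverage and the extremes of share. None of the 8 identifiers was found in the RefSeq gene table (0 of 8), so no annotation was added, and chitin synthase, hexokinase and other genes of the pathway were not analysed here. Intervals are exact (Clopper-Pearson, 95%), and the limit for 0 reads is 3 reads of the coverage; both cover counting error only. Sites with at least 10 reads were tested with the exact binomial test against 50% with Benjamini-Hochberg adjustment across every such site, at a threshold of 0.05, after a test on simulated data. Python 3.11.15, pandas 2.3.3 and SciPy 1.17.1 were used. Alternatives were a coverage of 5 or 20 reads, shares of 10 to 90% or 30 to 70%, single-base variants alone, 1 alternative base alone, and the Bonferroni adjustment.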

Additional observations from a re-analysis of the deposited data

How the results depend on the processing

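Of 44 values under alternatives, 14 moved beyond the limit set for them (the reported interval for a percent, 1.5 times for a count, any change for a median) and 30 did not. With a minimum coverage of 5 reads, both bases were found at 18.9% of all sites, 73.4% of all sites lay away from an even split, and the number of chitin gene sites away from it was 32 in place of 20. With 20 reads these were 86.1% and 4. The Bonferroni adjustment gave 40.6% and 4. A share from 10 to 90% gave both bases at 23.8% of all sites, and one from 30 to 70% at 15.2%. Restricted to at least 10 reads, the listed sites fell to 0 of 12 in trehalase, 0 of 5 in G6PI, 3 of 6 in G6PNA, 5 of 12 in chitinase BGIBMGA010240 and 11 of 25 in NAG. The counts of 32 and 4 and the site numbers follow from how many sites reach the coverage or the smaller threshold. The percent of chitin gene sites with both bases, 4.76% as reported (1 of 21 sites), was 2.44% at 5 reads (1 of 41), 20% at 20 reads (1 of 5) and 9.52% with shares from 10 to 90% (2 of 21). The value at 20 reads is over 4 times the reported one, and all 3 lie within the reported interval of 0.120 to 23.8% because that interval is wide. No paired analysis was possible because each strain has 1 library and no column gives the counts of either strain alone. At the median coverage of 6.5 reads over the 62 sites, a rarer allele can go unseen.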
